A study of Mus musculus with 4 samples.

Results

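The regions described here were the distal ATACseq peaks with H2A.Z of the WT mouse liver. They were the WT ATACseq peaks on chromosomes 1 to 19, outside 3 to 8 Mb of chromosome 14, whose centre lay more than 5 kb from the transcription start site (TSS) of every gene of any type in GENCODE vM21 and which a WT H2A.Z peak overlapped by at least 1 bp. There were 837 of them among 3745 distal peaks and 10060 ATACseq peaks in all, of which 36.9% met a WT H2A.Z peak. In ATACseq a transposase, Tn5, cuts and tags open chromatin, and ChIPseq for H2A.Z sequences DNA held by this histone variant after digestion with micrococcal nuclease. Both assays were made on the same 2 livers, which gave 4 libraries with 1 per condition. The WT liver came from a Uhrf1-Fl/fl male and the Uhrf1hepKO liver from a Uhrf1-fl/fl;Alb:Cre male, in which the albumin promoter drives Cre in hepatocytes. Both mice were C57Bl/6 of 8 to 12 weeks on a normal diet, with the liver taken in the morning. Both carried the floxed Uhrf1 alleles, and the tissue was whole liver, in which other cell types keep Uhrf1.

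H2A.Z is a variant of histone H2A that the SRCAP and p400 complexes place in nucleosomes. It is best known from the nucleosomes on either side of active and poised promoters, and is also found at enhancers and at insulators bound by CTCF. Distal accessible sites in liver include enhancers bound by hepatocyte factors such as FOXA, HNF4A and C/EBP proteins, insulators, and promoters that an annotation places elsewhere or does not list.

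The regions were chosen by their WT peaks in both assays, so their WT values are given as a description. The Uhrf1hepKO lists, the DNA sequence, the place in genes and the nearest protein-coding gene were not used to choose them. Uhrf1 had 1 peak within 5 kb of its TSS in each of the 4 lists, and a peak there does not check the deletion. With 1 library per condition no test between livers was possible. The Wilson 95% intervals given with shares cover counting error only. Absence of a peak means that no enrichment was detectable at that library's depth, and fewer cells with an open site cannot be told apart from less opening per cell.

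The sequences below are from the RefSeq FASTA of GRCm38, read on the plus strand. The first 4 belong to the members with the best lower rank of the WT ATACseq and WT H2A.Z folds. Those nearest Cmip and Thap1, with that of Efcab10, show the CTCF core. Those nearest Insig2, Hlf, Nr5a2 and Gadd45a stand for the liver and growth genes described further on, and the last shows a repeated array that holds the largest group of neighbouring members. Each is named by its nearest protein-coding gene. Capitals mark a motif in all but the last, where they mark bases of the annotated 4.5S RNA gene. The sequences of Dcn, Insig2 and Nr5a2 held none of the motifs searched.
Atp10a chr7:58399064-58399363: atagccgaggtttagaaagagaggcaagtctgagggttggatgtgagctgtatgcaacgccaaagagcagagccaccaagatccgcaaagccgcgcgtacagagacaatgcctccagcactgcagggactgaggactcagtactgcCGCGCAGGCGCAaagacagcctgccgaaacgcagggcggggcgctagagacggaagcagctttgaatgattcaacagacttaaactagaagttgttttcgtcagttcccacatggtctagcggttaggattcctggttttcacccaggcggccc
Dcn chr10:97313094-97313236: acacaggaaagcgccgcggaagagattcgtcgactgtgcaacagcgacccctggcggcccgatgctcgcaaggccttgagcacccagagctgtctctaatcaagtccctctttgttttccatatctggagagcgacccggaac
9230104L09Rik chr2:148851282-148851559: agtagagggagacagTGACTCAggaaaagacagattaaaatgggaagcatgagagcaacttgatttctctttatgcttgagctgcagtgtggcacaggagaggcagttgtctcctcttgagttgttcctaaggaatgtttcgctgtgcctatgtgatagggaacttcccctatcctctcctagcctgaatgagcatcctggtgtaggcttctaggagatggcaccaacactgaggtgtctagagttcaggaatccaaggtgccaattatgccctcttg
Efcab10 chr12:33380045-33380344: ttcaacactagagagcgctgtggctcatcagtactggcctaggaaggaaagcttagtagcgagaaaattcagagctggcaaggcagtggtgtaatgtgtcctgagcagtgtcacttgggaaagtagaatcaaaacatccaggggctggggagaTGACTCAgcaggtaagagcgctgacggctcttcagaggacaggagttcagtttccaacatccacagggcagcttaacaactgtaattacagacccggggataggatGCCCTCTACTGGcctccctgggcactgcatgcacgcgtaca
Cmip chr8:117224659-117224958: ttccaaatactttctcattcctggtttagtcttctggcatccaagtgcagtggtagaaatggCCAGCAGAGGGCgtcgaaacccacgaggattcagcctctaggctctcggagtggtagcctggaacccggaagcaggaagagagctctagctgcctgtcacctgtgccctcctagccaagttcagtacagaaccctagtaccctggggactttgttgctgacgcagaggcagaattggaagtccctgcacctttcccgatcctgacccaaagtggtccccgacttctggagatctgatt
Thap1 chr8:26169264-26169394: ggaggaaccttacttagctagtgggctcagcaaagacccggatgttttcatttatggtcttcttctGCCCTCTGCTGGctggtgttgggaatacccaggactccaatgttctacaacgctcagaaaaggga
Insig2 chr1:121348980-121349279: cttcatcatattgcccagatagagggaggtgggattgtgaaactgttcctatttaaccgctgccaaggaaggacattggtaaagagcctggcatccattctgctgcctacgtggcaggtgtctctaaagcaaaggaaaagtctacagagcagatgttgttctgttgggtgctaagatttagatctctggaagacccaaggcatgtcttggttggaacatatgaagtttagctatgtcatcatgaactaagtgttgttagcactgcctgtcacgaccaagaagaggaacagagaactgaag
Hlf chr11:90418057-90418346: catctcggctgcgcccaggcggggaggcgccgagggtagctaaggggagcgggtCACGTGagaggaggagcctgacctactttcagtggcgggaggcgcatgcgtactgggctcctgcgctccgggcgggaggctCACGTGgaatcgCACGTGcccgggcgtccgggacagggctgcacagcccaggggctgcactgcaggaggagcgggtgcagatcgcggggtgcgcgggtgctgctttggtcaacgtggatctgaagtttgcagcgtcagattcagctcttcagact
Nr5a2 chr1:137010450-137010749: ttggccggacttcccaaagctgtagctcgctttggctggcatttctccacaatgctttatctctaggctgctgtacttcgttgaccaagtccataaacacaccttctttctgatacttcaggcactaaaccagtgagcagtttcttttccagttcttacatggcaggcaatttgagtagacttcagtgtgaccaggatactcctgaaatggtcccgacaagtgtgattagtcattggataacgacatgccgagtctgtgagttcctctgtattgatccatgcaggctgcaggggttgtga
Gadd45a chr6:67102471-67102770: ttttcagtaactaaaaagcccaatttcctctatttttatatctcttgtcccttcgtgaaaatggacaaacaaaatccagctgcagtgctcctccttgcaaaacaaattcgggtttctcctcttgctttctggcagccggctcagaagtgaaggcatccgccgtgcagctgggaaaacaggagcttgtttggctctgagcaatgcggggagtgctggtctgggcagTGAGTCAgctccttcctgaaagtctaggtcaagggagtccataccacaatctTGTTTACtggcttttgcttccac
Rn4.5s array chr6:47654967-47655217: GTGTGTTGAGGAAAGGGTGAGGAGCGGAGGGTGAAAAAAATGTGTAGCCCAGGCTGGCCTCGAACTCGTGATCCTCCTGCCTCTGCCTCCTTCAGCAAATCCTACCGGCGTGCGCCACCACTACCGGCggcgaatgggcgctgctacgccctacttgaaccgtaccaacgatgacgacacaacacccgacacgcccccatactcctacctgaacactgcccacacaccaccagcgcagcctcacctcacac
In this set the motif in the sequence nearest Atp10a was that of NRF1, and the sequence nearest Hlf held 3 E-boxes (CACGTG), the motif of the clock factors CLOCK and BMAL1. The AP-1 motif (TGACTCA) stood in those nearest 9230104L09Rik, Efcab10 and Gadd45a, and the last of these also had a FOXA motif (TGTTTAC).

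The regions were wider than other distal peaks and had ordinary strength. Their median width was 274 bp (quartiles 191 to 393 bp), against 172 bp (141 to 240 bp) for the 2908 distal peaks without H2A.Z. Their median WT ATACseq fold, the pileup of reads over the local background as the authors' caller gave it, was 4.10 (quartiles 3.76 to 4.76), against 4.05 in the distal peaks without H2A.Z. Their median WT H2A.Z fold was 6.34 (quartiles 5.12 to 8.29), which placed the median member at the 71.2 percentile of the WT H2A.Z list and at the 40.6 percentile of the WT ATACseq list. The median overlap was 116 bp, and 737 members (88.1%) met 1 H2A.Z peak. The closest members to the distance limit lay 5008 bp from the TSS of 0610009L18Rik and 5053 bp from that of Adad2, and the closest peaks left out lay 4993 bp from Gm10432 and 4960 bp from Amn1. At the other limit, the members nearest Adgb and Enpp7 met H2A.Z by 1 bp, and a peak in an intron of Il33 that touched an H2A.Z peak end to end with 0 bp shared was not a member.

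The rule asks for H2A.Z anywhere on the peak, and its place on the peak is described next. An H2A.Z peak covered the centre of the ATACseq peak at 396 members in WT (47.3%), and a Uhrf1hepKO H2A.Z peak did so at 346 (41.3%, interval 38 to 44.7%). Of the 1339 Uhrf1hepKO summits within 1 kb of a member's centre, 343 (25.6%) lay within 100 bp of it and 526 (39.3%) at 100 to 300 bp. Per 100 bp and 100 peaks, this was 20.5 Uhrf1hepKO summits within 100 bp and 2.20 beyond 500 bp. Around ATACseq peaks with H2A.Z within 5 kb of a TSS the values were 18.1 and 4.93. Summits on both sides within 500 bp were found at 366 members in WT (43.7%) and at 288 in Uhrf1hepKO (34.4%, interval 31.3 to 37.7%). Among the peaks with H2A.Z within 5 kb of a TSS, the Uhrf1hepKO share with both sides was 48.9% (interval 47.1 to 50.7%). The share of members depended on the reach, and the WT value was 25.9% within 300 bp and 47.9% within 1 kb.

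**Figure D1:**
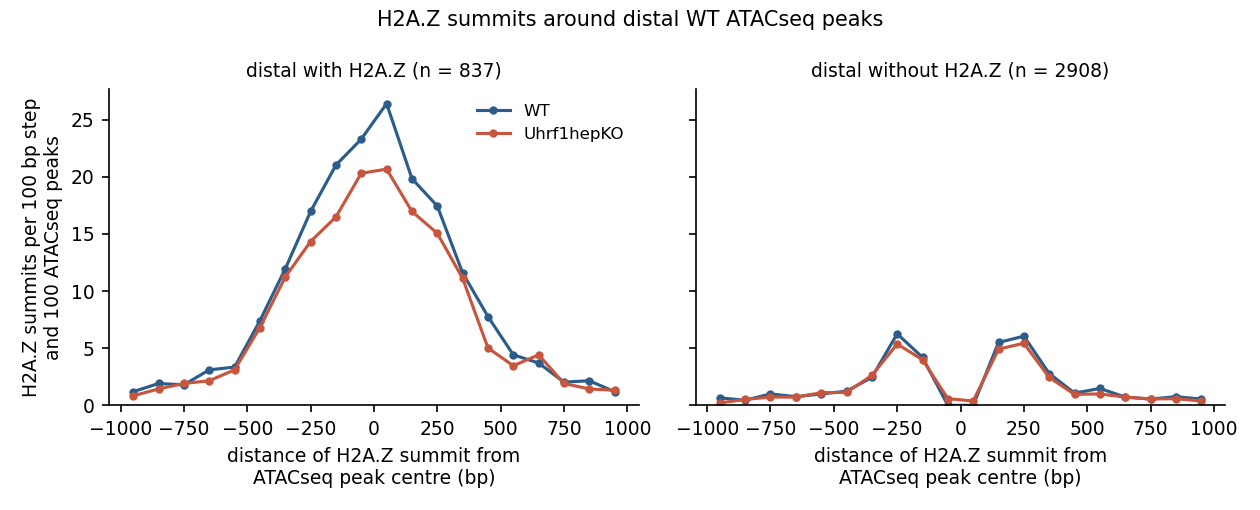
Number of H2A.Z summits (y axis, per 100 bp step and 100 ATACseq peaks) by distance from the centre of the WT ATACseq peak (x axis, bp) in the WT and Uhrf1hepKO lists, for distal peaks with H2A.Z (left) and without (right). In the left panel both lists are highest at the centre, with 26.4 WT and 20.7 Uhrf1hepKO summits in the step from 0 to 100 bp, and in the right panel both are near 0 at the centre and highest at 200 to 300 bp. The panels were split by WT H2A.Z overlap, so the WT values near the centre follow in large part from the rule.

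The distal peaks without an overlap were not all far from H2A.Z. A WT summit lay within 500 bp of the centre of 661 of the 2908 (22.7%), and none of these summits was within 100 bp. The rule largely fixes this absence, since a WT summit on the ATACseq peak would make the peak a member. These 661 peaks were narrower than the members, with a median of 166 bp, and 19.1% of them met the CpG island criteria, and 19% of the members did. Their Uhrf1hepKO ATACseq share was 54.0% (interval 50.2 to 57.8%), against 40.0% (interval 38 to 42.1%) in the 2247 distal peaks without a WT summit in reach.

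In the Uhrf1hepKO liver, H2A.Z was found again at most of the members and accessibility at about as many as not. A Uhrf1hepKO H2A.Z peak overlapped 670 members (80.05%, interval 77.2 to 82.6%), where the share was 84.2% of all WT ATACseq peaks with WT H2A.Z, 34.6% of all WT ATACseq peaks and 70.0% of all WT H2A.Z peaks. A Uhrf1hepKO ATACseq peak overlapped 439 members (52.4%, interval 49.1 to 55.8%), where the share of all WT ATACseq peaks was 61.1%. Both were found at 356 members (42.5%), against 59.7% of all WT ATACseq peaks with WT H2A.Z. H2A.Z alone was found at 314 members (37.5%), an ATACseq peak alone at 83 (9.92%) and neither at 84 (10.04%). Within 5 kb of a TSS, 74.9% of the ATACseq peaks with H2A.Z had a Uhrf1hepKO ATACseq peak and 85.4% had Uhrf1hepKO H2A.Z. The reads behind the commonest fold put the Uhrf1hepKO ATACseq background at 1.29 times that of WT. Scaled by the shortest peak of each list (121 bp in WT, 110 bp in Uhrf1hepKO), this gave a depth of 1.42 times WT. By this estimate the Uhrf1hepKO library was the deeper of the pair, but the lists hold no read totals to check it.

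**Figure D2:**
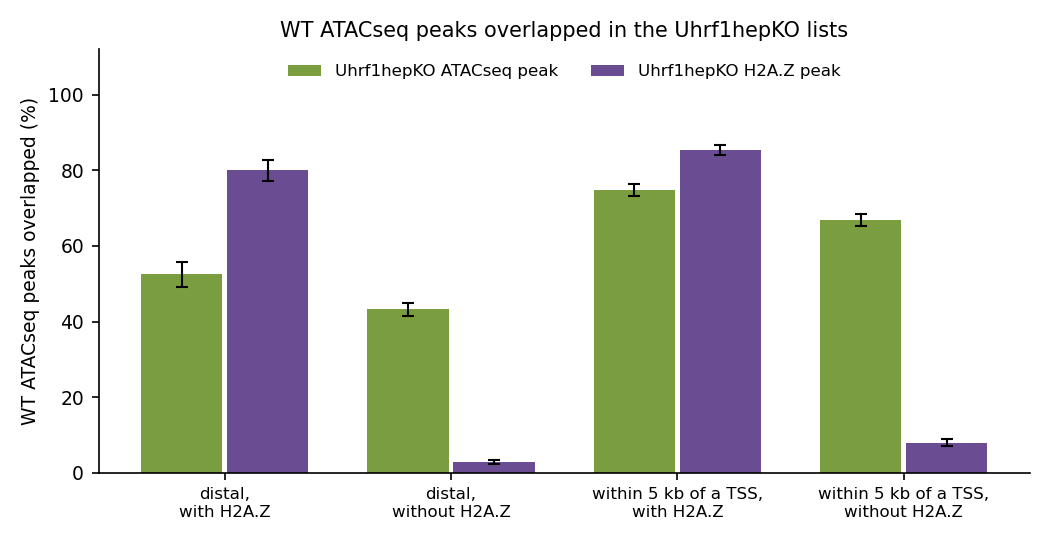
Share of WT ATACseq peaks (y axis, %) that a Uhrf1hepKO ATACseq peak (green) or a Uhrf1hepKO H2A.Z peak (purple) overlapped by 1 bp, in 4 classes by distance from a TSS and WT H2A.Z (x axis). Bars are shares and error bars Wilson 95% intervals for counting error. The distal peaks with H2A.Z stand at 52.4 and 80.05%.

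The members' ATACseq share was above that of the distal peaks without H2A.Z, 43.2% (interval 41.4 to 45%), by 9.26 percentage points (Newcombe interval 5.42 to 13.1). This comparison was added after the data were seen. It stayed between 5.52 and 11.9 points in 9 alternatives on distance, gene starts, q-value, chromosomes and recurring sequence, and it was smaller or below 0 when the overlap was stricter. When Uhrf1hepKO peaks had to cover at least 50% of the ATACseq peak it was 1.90 points (interval -1.82 to 5.69). When WT H2A.Z had to cover 50% and Uhrf1hepKO peaks 1 bp, 267 members were left, and it was -4.37 points (interval -10.3 to 1.84). With both held to 50% it was -8.02 points (interval -13.5 to -2.00). Among the stronger peaks, from the median fold of their list up, it was 1.14 points (interval -5.63 to 7.84). Among peaks of like fold, the members were higher in 5 of 6 classes, with 34.2% (interval 29.3 to 39.5%) against 23.04% (interval 20.7 to 25.5%) at a fold of 3.5 to 4. The exception was the lowest class, up to a fold of 3.5, with 40% against 45.3%. When peaks of like width were compared, the intervals of members and other distal peaks overlapped in every width class. Among the peaks of 200 to 300 bp the shares were 52.2 and 54.7%. A Uhrf1hepKO ATACseq peak covered the centre of 42.8% of the members (interval 39.5 to 46.1%) and of 38.9% of the distal peaks without H2A.Z (interval 37.2 to 40.7%).

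Strength in WT went with presence in Uhrf1hepKO in both assays. Of the members with a WT ATACseq fold up to 3.5, 16 of 40 had a Uhrf1hepKO ATACseq peak (40%, interval 26.3 to 55.4%). From a fold of 3.5 to 4, where it was 34.2% (113 of 330), the share rose from class to class, and of those with a fold over 6, 93.3% (56 of 60) had one. The 439 members with a Uhrf1hepKO ATACseq peak had a median WT fold of 4.44 and a median width of 320 bp, and the other 398 had 3.90 and 224.5 bp. Of the 247 members with a WT H2A.Z fold up to 5.12, 58.3% had Uhrf1hepKO H2A.Z, and of the 202 with a fold over 8.29, 95.05% had it. The ATACseq share was 50.2% in the former and 60.9% in the latter.

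**Figure D3:**
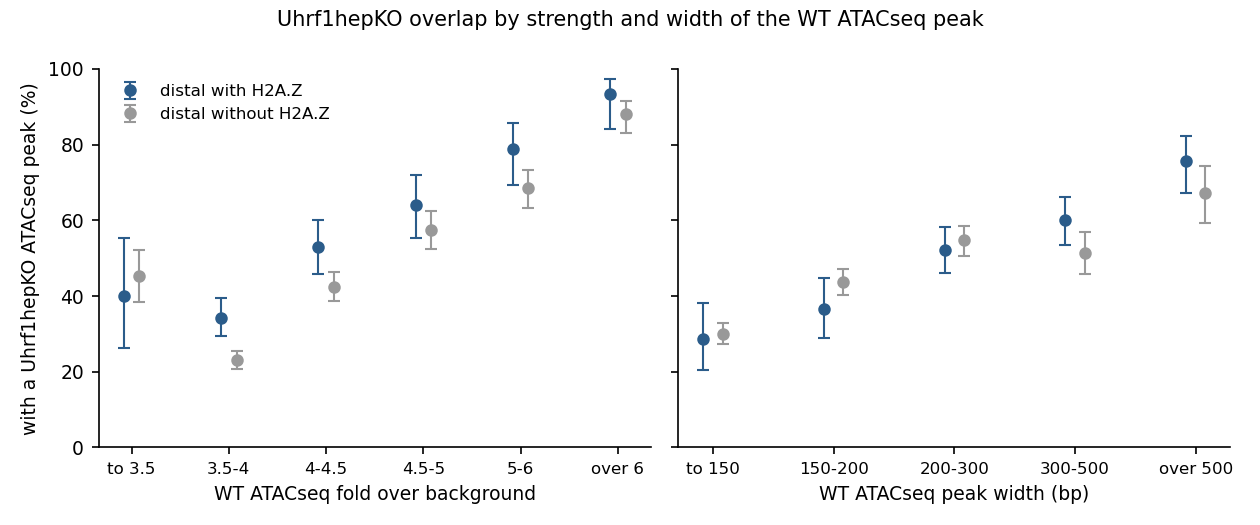
Share of distal WT ATACseq peaks with a Uhrf1hepKO ATACseq peak (y axis, %) by WT ATACseq fold (left) and by WT peak width in bp (right), for peaks with H2A.Z (blue) and without (grey). Points are shares and bars Wilson 95% intervals for counting error. The members stand at 40% up to a fold of 3.5, at 34.2% from 3.5 to 4 and at 93.3% over 6, and in the right panel the intervals of both classes overlap in every step.

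The summits of the WT and Uhrf1hepKO H2A.Z peaks were compared next. At the 670 members with H2A.Z in both livers, the summit of the WT peak and that of the Uhrf1hepKO peak were within 10 bp of each other at 260 (38.8%), within 20 bp at 402 (60%) and within 50 bp at 524 (78.2%). Both peaks had to meet the same ATACseq peak, which in part fixes how close their summits lie. The same distances were not computed for other H2A.Z peaks, so these shares have no level beside them. The median Uhrf1hepKO H2A.Z fold there was 6.97 (quartiles 5.35 to 9.06), at the 75.8 percentile of its own list. When the same rule was applied to the Uhrf1hepKO lists, 602 of 4115 distal ATACseq peaks (14.6%, interval 13.6 to 15.7%) had H2A.Z, against 837 of 3745 (22.3%, interval 21.0 to 23.7%) in WT. The Uhrf1hepKO H2A.Z list was the shorter, with 47391 peaks against 51702 in WT. The part that list length and library depth had in these shares was not tested. The sets shared 293 peaks, which is 35.0% of the WT set and 48.7% of the Uhrf1hepKO set.

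The members fell into kinds that the distance rule does not tell apart. The label distal holds for gene starts, but 114 members (13.6%, interval 11.5 to 16.1%) lay within 1 kb of the start of another annotated transcript, against 6.95% of the distal peaks without H2A.Z. For 75 of the 114 the nearest such transcript was of a protein-coding type. The member nearest 5730480H06Rik lay 23 bp from a transcript start of that gene, the one in Phf14, which encodes a PHD finger protein, 81 bp from an internal start, and the one nearest Rbl2 189 bp from a start of Aktip. These 114 were rich in CpG, with a median of 6.33 per 100 bp and 61.7% GC, and 69 of them (60.5%, interval 51.4 to 69.0%) met the CpG island criteria of GC over 50% and observed over expected CpG over 0.6 in a 300 bp window. The 723 other members had 1.67 CpGs per 100 bp and 50.7% GC, and 12.4% of them met the criteria. A RefSeq promoter of 300 bp overlapped 64 of the 114 and 24 of the 723. A Uhrf1hepKO ATACseq peak was found at 64.0% of the former (interval 54.9 to 72.3%) and at 50.6% of the latter (interval 47.0 to 54.3%), and Uhrf1hepKO H2A.Z at 80.7 and 79.9%.

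Over all 837, the median was 2 CpGs per 100 bp (quartiles 1 to 4) and 51.7% GC, against 1.33 CpGs (0.667 to 2.33) and 50.7% GC in the distal peaks without H2A.Z. The CpG island criteria were met by 159 members (19%, interval 16.5 to 21.8%) and by 6.81% of the distal peaks without H2A.Z. By place, 358 centres (42.8%) were in introns, 67 (8.00%) in exons and 412 (49.2%) between genes. Members with a Uhrf1hepKO ATACseq peak had a median of 2.33 CpGs per 100 bp (interval of the median 2 to 2.67), and those without had 1.67 (1.67 to 2).

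A further kind of member met, by at least 1 bp, genes that RNA polymerase III transcribes and that GENCODE vM21 does not list as genes there. This comparison was chosen after the sequences were seen. Of the 837, 15 (1.79%, interval 1.09 to 2.94%) overlapped a tRNA gene of the RefSeq annotation, against 11 of 2908 distal peaks without H2A.Z (0.378%, interval 0.211 to 0.676%), 0.625% of the peaks with H2A.Z within 5 kb of a TSS and 0.640% of those without. The genes were for 10 amino acids, with 4 for leucine. At n-TGgcc4 and n-TLaag8 the peak reached only the first bases of the gene. The 15 had a median width of 478 bp, against 270 bp in the other 822, and a wider peak can meet a gene more readily. The shares were not compared at like width. The member of best lower rank in both assays, nearest Atp10a at chr7:58398994-58399434, overlapped the glutamate tRNA gene n-TEttc7 at chr7:58399315-58399386, part of which is in the sequence shown. Its WT ATACseq fold was 10.01 and its Uhrf1hepKO fold 8.05, and its H2A.Z folds were 11.5 in WT and 12.5 in Uhrf1hepKO. Of the 15, 12 had a Uhrf1hepKO ATACseq peak (80%, interval 54.8 to 93%) and 13 Uhrf1hepKO H2A.Z. Their median WT H2A.Z fold was 8.29, against 6.34 in the other 822. The ATACseq share was alike in the 11 distal peaks without H2A.Z over a tRNA gene, with 9 of 11 (81.8%, interval 52.3 to 94.9%). Recurring sequence, described next, was in 8 of the 15 windows.

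The largest group of neighbours was a tandem array on chromosome 6. The coding genes nearest to the most members were Ezh2, which encodes the methyltransferase of PRC2, with 9, and Pdia4, which encodes a protein disulfide isomerase of the endoplasmic reticulum, with 8. All 17 lay between these genes, and 16 of them shared 32-mers with Rn4.5s, the gene of the 4.5S RNA, a short rodent transcript of RNA polymerase III, at chr6:47654921-47655094. The first of the 16 overlapped that gene, and 11 held every 32-mer of it in the peak or within 200 bp. Neighbouring centres were a median of 4338 bp apart. The WT ATACseq folds of the 16 were 2.59 to 4.76, and a Uhrf1hepKO ATACseq peak was found at 14 of them with folds of 2.66 to 4.66. The WT H2A.Z folds were 7.94 to 13.1, and all 16 had Uhrf1hepKO H2A.Z with folds of 8.60 to 13.2. All 17 windows consisted to over 50% of 32-mers found elsewhere in the genome, and the part that read placement among the copies had in these folds was not tested. After these, Sfi1 had 7 members, and Arhgap26, Gdi2 and Olfr161 had 3 each.

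Recurring sequence set apart another group, those with the highest accessibility. In the whole set 150 members (17.9%) had a 32-mer in their 300 bp window that is found elsewhere on chromosomes 1 to 19 or X, and 33.8% of the distal peaks without H2A.Z did. Of the 20 members with the highest WT ATACseq fold, 19 had one. The 8 highest had WT ATACseq folds from 12.9 to 34.2 and WT H2A.Z folds from 1.48 to 2.35, all within the lowest 0.333 percent of the WT H2A.Z list. The highest was at chr12:3109872-3110106, nearest Rab10, with 34.2 in WT and 34.3 in Uhrf1hepKO ATACseq and H2A.Z folds of 1.81 and 1.78. In Chl1, which encodes a neural adhesion molecule, an intronic member had ATACseq folds of 30.6 and 32.1 and H2A.Z folds of 1.93 and 1.82. The 1 of the 8 without such a 32-mer was in an intron of Kctd16, with ATACseq folds of 17.2 in WT and 17.2 in Uhrf1hepKO. All 8 had a Uhrf1hepKO ATACseq peak. The part that read placement among several copies had in the high ATACseq folds at recurring sequence was not tested. Among the 687 members without recurring sequence the Uhrf1hepKO ATACseq share was 49.2% (interval 45.5 to 52.9%) and the H2A.Z share 79.2%, and among the 38 with over 50% of recurring 32-mers they were 81.6 and 89.5%.

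**Figure D4:**
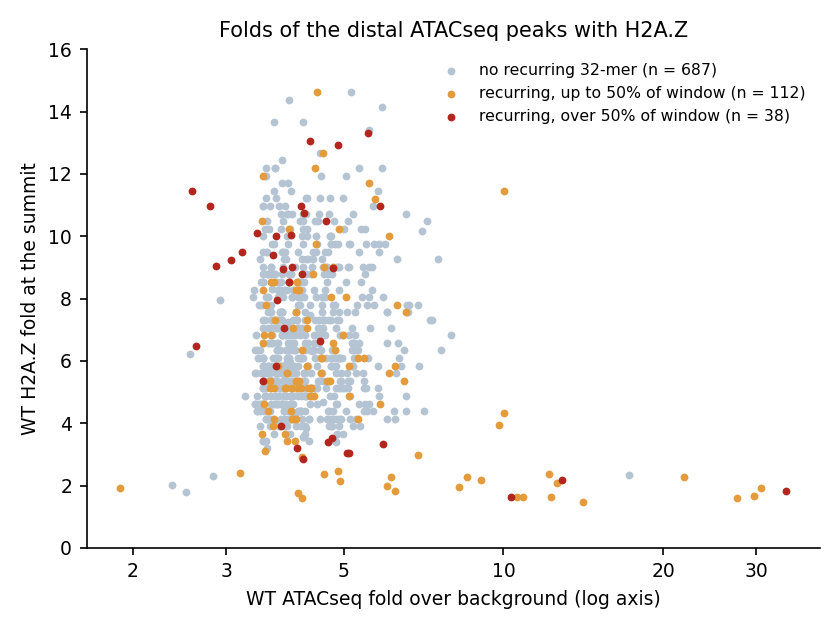
WT H2A.Z fold at the summit (y axis) against WT ATACseq fold (x axis, log scale) of the 837 distal peaks with H2A.Z, 1 point each, coloured by the share of the 300 bp window in 32-mers found elsewhere in the genome. The 8 points with the highest ATACseq fold have H2A.Z folds from 1.48 to 2.35, and 687 points have no recurring 32-mer.

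The highest H2A.Z folds were at other members. They were 14.6 at those nearest Lsm11, a U7 snRNP protein of histone mRNA processing, and Hmgb2, a chromatin protein of dividing cells. The member nearest Lsm11 at chr11:45926701-45927009 had ATACseq folds of 5.16 in WT and 4.202 in Uhrf1hepKO and a Uhrf1hepKO H2A.Z fold of 13.9. The one nearest Hmgb2, in an intron of Galnt7, had a WT ATACseq fold of 4.45, no Uhrf1hepKO ATACseq peak and a Uhrf1hepKO H2A.Z fold of 13.01. Those nearest Phf14 and 9230104L09Rik followed with 14.4 and 14.1, and 13.2 and 11.6 in Uhrf1hepKO. All 8 members with the highest WT H2A.Z fold had Uhrf1hepKO H2A.Z, and 5 of them had a Uhrf1hepKO ATACseq peak. The others with high values in both assays included one nearest Efcab10, with ATACseq folds of 5.90 and 4.195 and H2A.Z folds of 12.2 and 12.1. The member nearest Dcn, which encodes the matrix protein decorin of fibroblasts and stellate cells, met H2A.Z by 8 bp, with folds of 6.54 for WT ATACseq and 10.7 and 10.9 for H2A.Z, and it had no Uhrf1hepKO ATACseq peak.

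Sequence motifs separated the kinds again. All 18 motifs were searched on both strands of 300 bp windows. Those of hepatocyte factors were FOXA (TGTTTAC or TGTTTGC), HNF4A (CAAAGGTCA or CAAAGTCCA), C/EBP (TTGCGCAA, TTGCACAA or TTGCATAA), Onecut (ATTGATT) and HNF1. At least 1 of these was in 24.7% of all members (interval 21.9 to 27.8%) and 23.8% of the distal peaks without H2A.Z. It was in 196 of the 723 members away from transcript starts (27.1%, interval 24.0 to 30.5%), in 14.3% of windows 2 kb to either side of members and in 13.5% of all RefSeq promoters of the same length. Within 5 kb of a TSS with H2A.Z the share was 8.37%, and it was 9.65% (11 of 114) at members near another transcript start. The FOXA motif was in 14.4% of the 723, 14.1% of the distal peaks without H2A.Z and 8.47% of the promoters. For HNF4A the 3 shares were 4.43, 2.85 and 0.951%, and for C/EBP 6.36, 5.12 and 1.92%. For AP-1 they were 8.44, 7.57 and 5.20%, for TEAD (CATTCCA) 4.98, 4.78 and 4.30%, and for Onecut 5.12, 4.81 and 2.86%. In windows 2 kb to either side of all members, FOXA was in 9.44%, HNF4A in 0.418% and C/EBP in 1.73%. There AP-1 was in 4.36%, TEAD in 3.88% and Onecut in 3.52%. Beside the distal peaks without H2A.Z, TEAD was in 5.02%, above its share in those peaks.

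The motifs of promoter factors were ETS (CCGGAAGT), Sp (GGGGCGGGG), NFY (CCAATCA), CRE (TGACGTCA) and NRF1. At least 1 was in 44 of the 114 members near another transcript start (38.6%, interval 30.2 to 47.8%), in 9.96% of the 723 others, in 7.32% of the distal peaks without H2A.Z in 42.1% of the peaks with H2A.Z within 5 kb of a TSS and in 24.3% of the promoters. Sp and NFY motifs were each in 11.4% of the 114, and 11.4 and 7.80% of all RefSeq promoters held them. CRE was in 7.89% of the 114 (promoters 1.79%), NRF1 in 7.02% (promoters 2.72%) and ETS in 5.26% (promoters 3.89%). The E-box was in 10.9% of all members (interval 8.94 to 13.2%), 7.29% of the distal peaks without H2A.Z and 7.15% of the promoters. It was in 10.4% of all WT ATACseq peaks, a share like that of the members. Within 5 kb of a TSS it was in 11.3% of the peaks with H2A.Z and 12.1% of those without. GR, HNF1, RFX, ZNF143 (ACTACAATT) and YY1 (AAGATGGC) were in 0.119 to 1.08% of the members, and in 0.0366 to 2.74% of the promoters. NFY and Onecut motifs can overlap in part, and none of the motifs with fixed letters lies whole in another. A match says only that these letters are in the window.

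**Figure D5:**
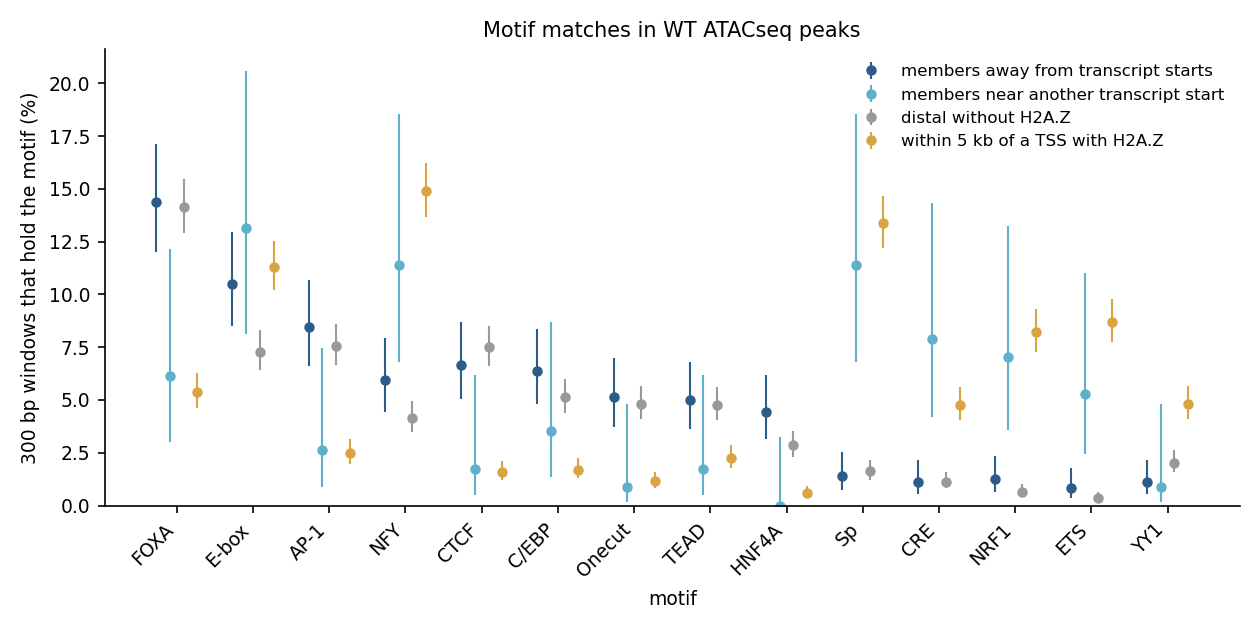
Share of 300 bp windows that hold each motif (y axis, %) for 14 motifs (x axis), in members away from transcript starts, members near another transcript start, distal peaks without H2A.Z and peaks with H2A.Z within 5 kb of a TSS. Points are shares and bars Wilson 95% intervals for counting error. FOXA stands at 14.4% in members away from transcript starts and Sp at 11.4% in members near one.

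The core of the CTCF motif, the site of the insulator protein, was in 50 members (5.97%, interval 4.56 to 7.79%), 7.497% of the distal peaks without H2A.Z, 1.60% of the peaks with H2A.Z near a TSS and 0.558% of the promoters. The 51 cores lay a median of 82 bp from the centre of the 300 bp window, and 11 (21.6%) were within 50 bp. They were thus not gathered at the centre. Of these 50 members, 30 (60%, interval 46.2 to 72.4%) had a Uhrf1hepKO ATACseq peak and 41 (82%, interval 69.2 to 90.2%) Uhrf1hepKO H2A.Z. Uhrf1hepKO summits on both sides were found at 9 of them (18%, interval 9.77 to 30.8%), against 279 of the other 787 members (35.5%, interval 32.2 to 38.9%).

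RefSeq also lists enhancers, 1010 on chromosomes 1 to 19, and these were looked up after the values were seen. A listed enhancer of any kind overlapped 17 members (2.03%, interval 1.27 to 3.23%), against 13 distal peaks without H2A.Z (0.447%, interval 0.261 to 0.763%). Of the 17, 16 were VISTA elements, which were tested for activity in embryos, and none of those was listed for liver. The member nearest Fos lay in an element listed for heart, that nearest Btg2 in one for the brain and cranial ganglia, and that nearest Tbx3 in a fragment active in the atrioventricular canal. Uhrf1hepKO H2A.Z was found at 16 of the 17 and a Uhrf1hepKO ATACseq peak at 8.

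By nearest protein-coding gene, the members were scattered. They had 769 different nearest genes, of which 722 had 1 member, and 347 members (41.5%) lay over 50 kb from a protein-coding TSS, with a median of 37615 bp. The nearest gene is a measure of place and does not show what a site acts on. Of all 20807 protein-coding genes 3.70% were nearest to a member, which is the level beside which the lists are given. Of 61 genes of plasma and acute phase proteins and 57 of drug metabolism, none was nearest to a member. Of the liver enriched genes of the study, which it took from a human liver proteome set, 4 were (1.56%). For the distal peaks without H2A.Z the shares were 9.37% of the liver enriched genes and 10.8% of all protein-coding genes. WT ATACseq peaks near promoters were looked up as a check of the tissue. The check was not met for plasma protein, hepatocyte factor and drug metabolism genes, which fell below the share of all coding genes. Of the 61 plasma protein genes, 9 (14.8%) had a WT ATACseq peak within 5 kb of the TSS, with Apoa2, Fgg and Hpx among them and Alb not. So did 4 of 40 hepatocyte factor genes, without Hnf4a, where the share of all coding genes was 31.4%. Of the markers of other liver cells, 0 of 22 endothelial, 1 of 19 Kupffer cell, 1 of 15 stellate cell, 1 of 10 cholangiocyte and 1 of 13 lymphocyte genes had one. Lipid and bile acid genes stood at 36.5% (19 of 52), glucose and amino acid genes at 31.2% (15 of 48) and drug metabolism genes at 5.26% (3 of 57). The share of each cell type was not tested.

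Hepatocyte transcription factor genes had 4 members, nearest Nr3c1, Nr5a2, Prox1 and Tbx3, of 40 genes listed (10%). Of the same 40, 10 (25%) were nearest to a distal peak without H2A.Z. Nr5a2 encodes LRH-1, a regulator of bile acid synthesis. Its member at chr1:137010336-137010864, 50152 bp upstream of the TSS, had ATACseq folds of 4.28 in WT and 4.17 in Uhrf1hepKO and H2A.Z folds of 9.26 and 9.06. The member nearest Nr3c1, the glucocorticoid receptor gene, had ATACseq folds of 4.63 and 3.51 and a WT H2A.Z fold of 9.02, with no Uhrf1hepKO H2A.Z peak. The one nearest Tbx3, in an exon of Tbx3os1, had a WT ATACseq fold of 4.77 with no Uhrf1hepKO ATACseq peak and H2A.Z folds of 6.58 and 6.51. The member nearest Prox1, named after its values were seen, had a WT ATACseq fold of 3.77, no Uhrf1hepKO ATACseq peak and H2A.Z folds of 5.85 and 6.97, the same combination as that nearest Tbx3.

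Of 52 genes of lipid and bile acid metabolism, 3 were nearest to a member, and all 3 members had both Uhrf1hepKO peaks. A distal peak without H2A.Z had 1 of these 52 as its nearest gene for 12 of them (23.1%). Insig2 encodes an inhibitor of SREBP processing. The member 16541 bp upstream of its TSS had ATACseq folds of 4.49 and 4.32 and H2A.Z folds of 10.7 and 8.13. The member 6834 bp upstream of Elovl5, a fatty acid elongase gene, had ATACseq folds of 4.14 and 4.30 and H2A.Z folds of 6.09 and 7.44. The member downstream of Scd1, the stearoyl-CoA desaturase gene, had ATACseq folds of 4.10 and 4.32 and H2A.Z folds of 5.12 and 4.42, and its WT and Uhrf1hepKO H2A.Z peaks were at different ends of the ATACseq peak. Of 48 genes of glucose and amino acid metabolism 2 had members, Irs2 with 2 and Ppargc1a with 1, and all 3 members had Uhrf1hepKO H2A.Z and no Uhrf1hepKO ATACseq peak. Of the same 48, 13 (27.1%) were nearest to a distal peak without H2A.Z. The member nearest Ppargc1a, which encodes the coactivator PGC-1α of gluconeogenesis, had a WT ATACseq fold of 3.84 and H2A.Z folds of 10.5 and 10.2.

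Among 21 circadian clock genes, 2 were nearest to a member (9.52%), and 9 (42.9%) were nearest to a distal peak without H2A.Z. Hlf encodes a PAR bZIP factor of the clock output, and its member at chr11:90418057-90418346, 27307 bp upstream, had ATACseq folds of 7.33 and 6.24 and H2A.Z folds of 7.31 and 5.11. Its window had 9 CpGs per 100 bp and holds the 3 E-boxes shown. The member nearest the repressor gene Cry1, 5188 bp upstream, had folds of 3.69 and 4.63 in WT and neither peak in Uhrf1hepKO. Of 33 early response and growth control genes, 4 had members (12.1%), nearest Btg2, Fos, Gadd45a and Myc. Of the same 33, 17 (51.5%) were nearest to a distal peak without H2A.Z, where 10.8% of all protein-coding genes were. All 4 members had Uhrf1hepKO H2A.Z, with folds from 3.95 to 10.2, and those nearest Fos and Myc had Uhrf1hepKO ATACseq peaks. The member nearest Fos, the AP-1 subunit gene, 18554 bp upstream at chr12:85455126-85455546, had ATACseq folds of 5.34 and 4.53 and H2A.Z folds of 4.63 and 3.95. The member nearest Myc lay in an intron of Pvt1, 343113 bp from the Myc TSS, with ATACseq folds of 3.83 and 3.44 and H2A.Z folds of 9.02 and 10.2. The member nearest Gadd45a, a gene of the DNA damage response, had a WT ATACseq fold of 4.10, no Uhrf1hepKO ATACseq peak, and H2A.Z folds of 5.36 and 6.04.

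Markers of other liver cells were nearest to a member in single cases, where 3.70% of all coding genes were. None of 22 endothelial and 19 Kupffer cell genes was, 1 of 15 stellate cell and fibroblast genes was (Dcn), 1 of 10 cholangiocyte genes (Sox9) and 1 of 13 lymphocyte genes (Klrb1c, with 2 members that share 32-mers with Rn4.5s). The study took its cell proliferation genes by gene ontology from silenced genes in its most open chromatin states, which it defined in part on ATACseq and H2A.Z of this tissue, so their count is not independent of the rule. Of 567 such genes, 32 were nearest to 40 members (4.78%, interval 3.53 to 6.44%), where 3.85% of the distal peaks without H2A.Z were nearest such a gene. Of these 40, 9 were nearest Ezh2, and the windows of these 9 were among the recurring ones beside Pdia4 described above. Without them 31 of 828 were left (3.74%, interval 2.65 to 5.27%), of which 11 had a Uhrf1hepKO ATACseq peak and 25 Uhrf1hepKO H2A.Z.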

How the data were processed

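ATACseq and H2A.Z ChIPseq peak lists of 1 WT and 1 Uhrf1hepKO liver were used, with 1 library per condition. The authors aligned the reads to GRCm38 with BWA-MEM and called peaks per library with MACS2, as broad regions for ATACseq and as peaks with summits for H2A.Z, so a peak's edges and presence depend on the depth of its library. The study states single-end reads for ATACseq and a paired-end input setting for its peak calls, and the files do not settle which applied. The shift of reads for the Tn5 cut is not given in the sources used here. The submitters' processing notes name BWA, Trimmomatic, Picard and FastQC 0.11.5, and the version of MACS2 is not given in the sources used here. The deposited fold is the ratio of pileup to local background, averaged over a broad region or taken at an H2A.Z summit, and is not scaled between libraries. The deposited p-values and q-values are written as −log10, and the deposited score is derived from the q-value for display. The highest q-value was 0.0997 for WT ATACseq and 0.05 for WT H2A.Z. The lists hold no read totals. With a single library per condition no alternative could leave out a replicate.

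Peaks were read 1-based on GRCm38, with genes from GENCODE vM21 and sequence, tRNA genes, enhancers and promoters from RefSeq for GRCm38.p6. Overlap was 1 bp. Sequence was read in 300 bp windows on the peak centre. A 32-mer was recurring when it was found elsewhere on chromosomes 1 to 19 or X. Shares have Wilson 95% intervals and differences of shares Newcombe intervals. Named members were the 8 with the highest WT ATACseq fold, the 8 with the highest WT H2A.Z fold and the 8 with the best lower rank of both among the members. Up to 3 per gene list by the same lower rank were also named, with those at the limits of the rule and the genes nearest to the most members. The members and lists were chosen with earlier results of these data known, and the RefSeq features were looked up after the sequences were seen. The scripts were tested on simulated data and run in Python 3.11.15 with pandas 2.3.3, numpy 2.4.6, matplotlib 3.10.9 and scipy 1.17.1.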

Additional observations from a re-analysis of the deposited data

How the results depend on the processing

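With 1 library per condition and depth known only through the folds, none of the values has a replicate error. No paired analysis was possible because each condition has 1 library and no result comes from a test. Of 163 values recomputed under 20 alternatives, 121 stayed within the counting interval or spread used, 40 moved and 2 changed sign. The alternative without peaks that hold a recurring 32-mer, both split overlap rules and the whole comparison of the Uhrf1hepKO ATACseq share with other distal peaks were chosen after seeing the data. The cause of the moves was not tested, except where an alternative itself sets the number of peaks or transcript starts.

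When H2A.Z and the Uhrf1hepKO peaks each had to cover 50% of the ATACseq peak, 267 members were left (7.13% of distal peaks). Of these 31.5% had a Uhrf1hepKO ATACseq peak, 71.9% Uhrf1hepKO H2A.Z, 22.5% both, 8.99% another transcript start, 35.96% summits on both sides and 39.3% an intron at the centre, with 50.7% GC. The Uhrf1hepKO ATACseq share of members minus that of the other distal peaks was then -8.02 points. It was -4.37 points with only H2A.Z held to 50%, and 1.90 with only the Uhrf1hepKO peaks. With peaks from the median fold up there were 253 members (17.6%), 77.1% with Uhrf1hepKO H2A.Z, 19.4% near another transcript start, 9.88% with the CTCF core, 38.7% with both sides and 0% nearest a liver enriched gene. Their medians were 2.67 CpGs per 100 bp, 52.7% GC and 5.67% repeat-masked, and the difference was 1.14 points. A q-value of at most 0.01 gave 535 members, 8.04% with the CTCF core and 2.33 CpGs. Members near another transcript start were 16.5% at 2 kb, 10.5% at 10 kb, 0% with every transcript start excluded and 25.4% with protein-coding gene starts only. Every transcript start excluded gave 1.67 CpGs, 50.7% GC and 37.7% in introns, and protein-coding starts only gave 23.8% with H2A.Z, 2.33 CpGs and 38.99% in introns. With 3 to 8 Mb of chromosome 14 the share with H2A.Z was 21.03%, and without recurring 32-mers it was 26.3% with 4% repeat-masked. A looser CTCF core was in 8.24%, and both sides were found at 47.9% within 1 kb and 25.9% within 300 bp.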

Other observations

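Some peaks of the same kind lay outside the chromosomes described. On chromosome X 3 of 34 distal WT ATACseq peaks met a WT H2A.Z peak, and all 3 had Uhrf1hepKO H2A.Z and 1 a Uhrf1hepKO ATACseq peak. In 3 to 8 Mb of chromosome 14, 244 of 379 WT ATACseq peaks were distal and 2 of them met WT H2A.Z. By chromosome, the share of distal peaks with H2A.Z was 29.8% on chromosome 6, which holds the Rn4.5s array, and 16.4% on chromosome 19. Members were mostly far from each other, with 52 of 837 (6.21%) within 10 kb of another.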
